A study of Oryza sativa with 6 samples.

Results

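The heat shock genes of rice roots were followed here in the transgenic rice line Huahui 1 (HH1) and its non-transgenic parent Minghui 63 (MH63). Members were all genes whose symbol or synonym, in the array annotation or in the RefSeq gene table, is that of a numbered heat shock protein (HSP), a heat shock factor (HSF) or a ClpB chaperone. This gave 51 of 39387 annotated genes. They comprised 22 small HSPs, 3 HSP90 genes, 3 genes of the HSP100/ClpB class, 13 HSFs of class A, 6 of class B and 4 of class C. No HSP40, HSP60 or HSP70 gene carries a name of this form in these tables, so those families are not covered.

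The transgenic group was HH1, a single line in the Minghui 63 background, and the control group was non-transgenic MH63, each with 3 biological replicates of roots at 30 days and 1 Affymetrix rice array per replicate. Seedlings of both genotypes grew in nutrient solution with 16 h of light at 30 °C and 8 h of dark at 26 °C, and the labels name no heat treatment. The labels do not name the transgene, and with 1 line the insertion and the line cannot be told apart. The study compared the genotypes to look for unintended effects of the transformation in roots.

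Heat shock proteins are molecular chaperones. Small HSPs bind unfolding proteins and hold them in a soluble state, HSP90 folds and stabilises signalling proteins, and HSP101 of the ClpB family pulls proteins out of aggregates. Heat shock factors are the transcription factors that switch these genes on by binding heat shock elements in their promoters. In plants class A factors carry activation motifs, class B factors lack them and several act as repressors, and class C factors lack them too. In Arabidopsis HSFA1 proteins start the response, HSFA2 prolongs it, and HSP90 holds HSFA1 inactive in the absence of stress.

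Of the 51 genes, 45 had probe sets on the array, 68 in all. For HSP16.9C, HSP18.9, HSP19.0, HSFA6A, HSFB4C and HSFC2B no probe set was listed. The test kept the brighter 50% of all probe sets, which held 56 of the 68 and left 40 genes with a tested probe set of their own. HSP16.6, HSP16.9B, HSP17.8, HSP21.9 and HSP26.7 had only probe sets below this limit. Each gene was read from its brightest tested probe set, and signals of different probe sets are not compared with each other, since brightness also depends on the probes.

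Signals have no unit, and the 95th percentile of foreign reporter probe sets, from 37.1 to 42.3 between arrays, served as the background level. Precision is limited by having 3 arrays per genotype. Median signals of the arrays ran from 33.1 to 33.8. Of 5 root markers found by name, among them the silicon transporters Lsi1 and Lsi2 and the iron transporter IRT1, 4 exceeded the background level on every array. The root markers summed to 14781, 14965 and 17267 in HH1 and 17803, 11983 and 15489 in MH63. Of 9 green tissue markers 3 exceeded the background level on every array, and their summed signal was 626, 1812 and 560.2 in HH1 replicates 1, 2 and 3 and 2206, 2212 and 525 in MH63 replicates 1, 2 and 3. Of 10 seed markers 4 did so and 2, GLUB-4 and RAB16B, were below it throughout, and their sum was 7059.5, 1409 and 1341 in HH1 and 1692, 1423 and 1664 in MH63. Ribosomal 18S RNA read 3446 on HH1 replicate 2, with 811 and 961 on the other HH1 arrays and 1097 to 1457 on the MH63 arrays. In whole roots, fewer cells of a type and less RNA per cell cannot be told apart.

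No heat shock gene passed the test between the genotypes. In a linear model over all 28597 probe sets tested (limma, Benjamini-Hochberg), 0 of the 56 heat shock probe sets passed an adjusted p of 0.05, where 0.112% of all probe sets did, 0.0839% higher and 0.0280% lower in HH1. At an unadjusted p under 0.05 there was 1 of 56, against 4.01% of all probe sets. The 3 HH1 and 3 MH63 signals did not overlap for 1 of 56, against 8.78% of all probe sets, and it was the same one, a dim probe set of HSP81-3 described below. By gene, each on its brightest probe set, the genotypes overlapped in all 40, where 8.63% of all genes tested did not overlap. The 40 genes split evenly, 20 above and 20 below 0, where 58.4% of all genes were below, and their median log2 difference (HH1 minus MH63) was 0.00, and that of all 14815 genes tested was -0.03. The extremes were HSFA4D at 0.81 and HSP16.9A at -0.66, at unadjusted p of 0.30 and 0.33 (limma).

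**Figure D1:**
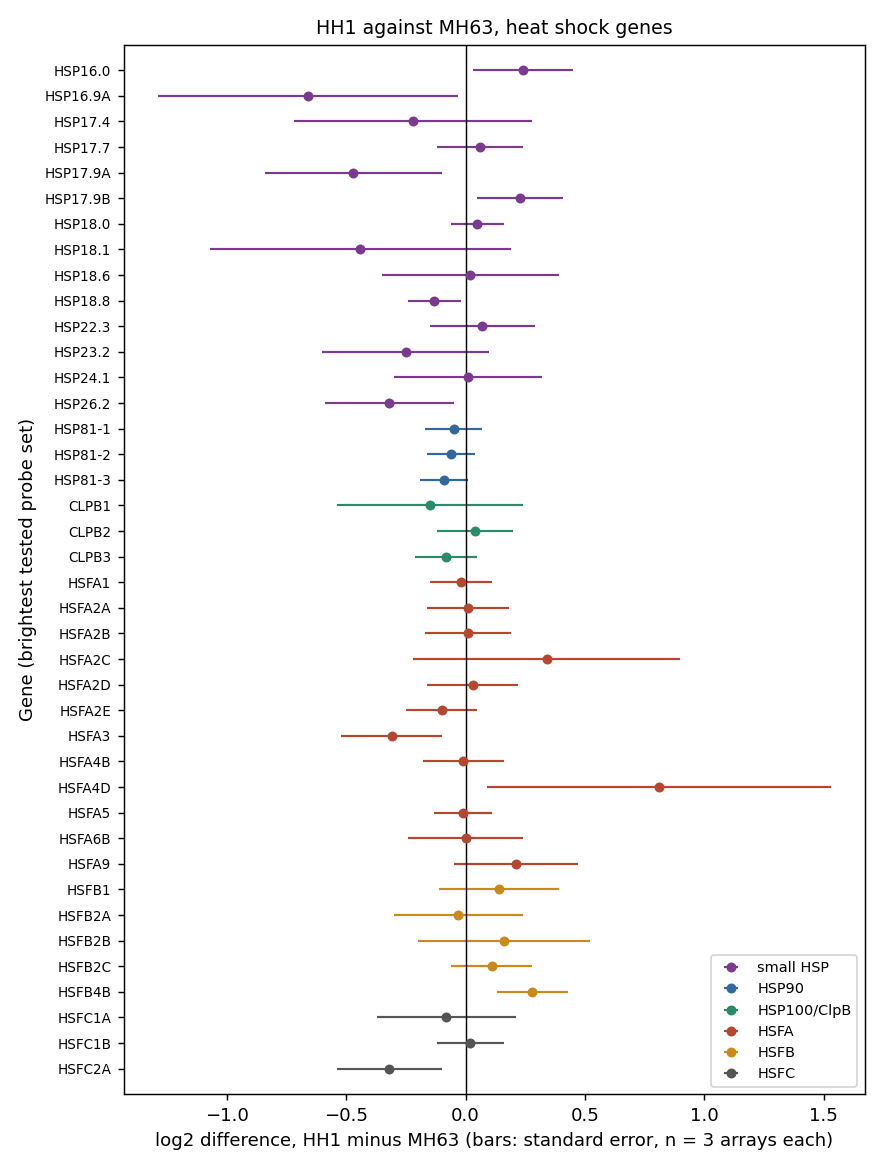
Log2 difference between HH1 and MH63 for the 40 tested heat shock genes, with the class by colour and bars for the standard error of the fit (n = 3 arrays each). Points lie on both sides of 0 from -0.66 (HSP16.9A) to 0.81 (HSFA4D). The longest bars belong to HSFA4D, HSP16.9A, HSP18.1, HSFA2C and HSP17.4, and the 3 HSP90 genes have short bars next to 0.

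The spread between arrays of 1 genotype is given as a description, without a test. The within-genotype standard deviation of the log2 signal had a median of 0.44 over the 14 tested small HSPs and 0.20 over all genes tested. It was 0.10 over the 3 HSP90 genes, 0.18 over HSP100/ClpB, 0.25 over HSFA, 0.37 over HSFB and 0.31 over HSFC. A log2 range above 1 among the 3 arrays of either genotype occurred in 7 of 14 small HSPs and in 14 of the 40 genes, where 13.8% of all genes tested had one. Among the 7, HSP16.9A, HSP18.6 and HSP23.2 had arrays near or below the background level. The values over all genes were not matched to the members for brightness.

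**Figure D2:**
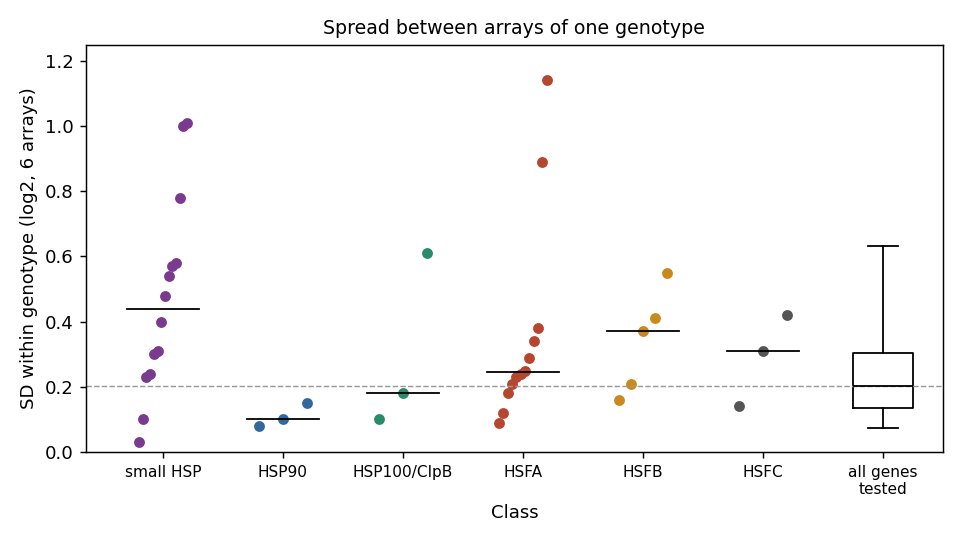
Standard deviation of log2 signal between arrays of 1 genotype, pooled over both genotypes, for each tested heat shock gene by class, with a line at the class median; the box on the right gives the median and quartiles of all 14815 genes tested, with whiskers at the 5th and 95th percentiles, and the dashed line marks their median of 0.20. Small HSPs reach from 0.03 to 1.01, HSFA genes from 0.09 to 1.14, and the HSP90 genes stay between 0.08 and 0.15.

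HSP18.1 and HSP17.4, neighbours on chromosome 3, had within-genotype standard deviations of 1.01 and 0.78 on the log2 scale, and HSP17.7 next to them had 0.24. HSP17.4, HSP18.1 and HSP17.7 are 3 genes in a row in the annotation, and HSP17.9A lies close by. HSP18.1 (LOC4332361) had signals of 792, 2004 and 312 in HH1 replicates 1, 2 and 3 and of 766, 1101 and 1466 in MH63 replicates 1, 2 and 3. HH1 replicate 2 was above and HH1 replicate 3 below every MH63 array, so the HH1 signals spanned a 6.43-fold range that enclosed MH63. Mean and SD over 3 arrays were 1036 ± 872 for HH1, against 1111 ± 349.8 for MH63. The log2 difference was -0.44 (limma, SE 0.63, adjusted p 1.000), without HH1 replicate 2 it was -1.11 and without HH1 replicate 3 it was 0.23. A second probe set of this gene, which can bind related transcripts, showed the same order in HH1, with 625, 1628 and 289.7.

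HSP17.4 (LOC4332360) had signals of 304, 651 and 173 in HH1 and 250.3, 401 and 534 in MH63, again with HH1 replicate 2 highest and HH1 replicate 3 lowest of the 6 arrays. HSP17.9A (LOC4332357), the brightest probe set of the class, read 1463, 4347 and 1928 in HH1 and 3119, 2988 and 3477 in MH63. Mean and SD over 3 arrays were 2579 ± 1549 for HH1, against 3195 ± 253 for MH63. The MH63 arrays lay within a 1.16-fold range, while HH1 replicate 2 was above all of them and the other HH1 arrays were below all of them. Its log2 difference was -0.47 (limma, SE 0.37, adjusted p 1.000), and without HH1 replicate 1 it was -0.14. Without HH1 replicate 2 it was -0.93 (SE 0.14, unadjusted p 4.4e-04, adjusted p 0.15), and adjusted p ran from 0.15 to 1.000 over its alternatives. HSP17.7, the last of the row, varied less, with 785, 1132 and 835 in HH1 and 762, 884 and 976 in MH63.

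On chromosome 1 another 5 small HSP genes follow each other, HSP16.6, HSP17.9B, HSP16.9C, HSP16.9A and HSP16.9B. Of these HSP17.9B and HSP16.9A passed the brightness limit, HSP16.9C has no probe set listed and HSP16.6 was below background on all 6 arrays. HSP16.9A (LOC4325697) had signals of 44.2, 86.5 and 39.1 in HH1 and 45.8, 55.5 and 229.9 in MH63. MH63 replicate 3 alone was far above the rest, which lay between 39.1 and 86.5. Mean and SD over 3 arrays were 56.6 ± 26.0 for HH1, against 110.4 ± 104 for MH63. The log2 difference was -0.66 (SE 0.63, adjusted p 1.000, limma), and without MH63 replicate 3 it was 0.07. Its annotation record also carries the name HSP16.9B, so these near-identical neighbours may share signal. HSP16.9B itself, below the brightness limit and named after its values were seen, had the same highest arrays and read 11.6, 23.3 and 6.83 in HH1 and 14.2, 13.3 and 206 in MH63, above background on MH63 replicate 3 only. HSP17.9B, of the same row, read 435, 571 and 384 in HH1 and 403, 422 and 350.4 in MH63, with its MH63 replicate 3 the lowest of that genotype.

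The same MH63 array was high for other small HSPs, which are named here after their values were seen. HSP26.7, a chloroplast small HSP, had signals of 16.3, 56.0 and 11.2 in HH1 and 12.7, 23.6 and 179 in MH63. Only HH1 replicate 2 and MH63 replicate 3 exceeded the background level. Of the 12 heat shock probe sets below the brightness limit, only those of HSP16.9B and HSP26.7 had a log2 range over 3 within MH63. Such a range occurred in 0.318% of all probe sets below the limit. The cut of 3 was likewise picked after these values were seen, so the share is a description and not a test. HSP18.6 read 41.0, 68.5 and 37.0 in HH1 and 35.0, 36.2 and 78.1 in MH63, with the same arrays on top. It was below the background level on HH1 replicate 3 and on MH63 replicates 1 and 2.

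HSP18.0 (LOC4325342) depended on the probe set. Its brightest probe set, which can bind related transcripts, was flat, with 295, 304 and 307 in HH1 and 298, 288 and 289 in MH63. Another read 158, 401 and 77.8 in HH1 and 233, 198 and 767 in MH63, highest on MH63 replicate 3 and, within HH1, on HH1 replicate 2. The third varied little, with 155, 149.9 and 191 in HH1 and 187, 165 and 197 in MH63. Which of them reads the HSP18.0 transcript was not tested.

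**Figure D3:**
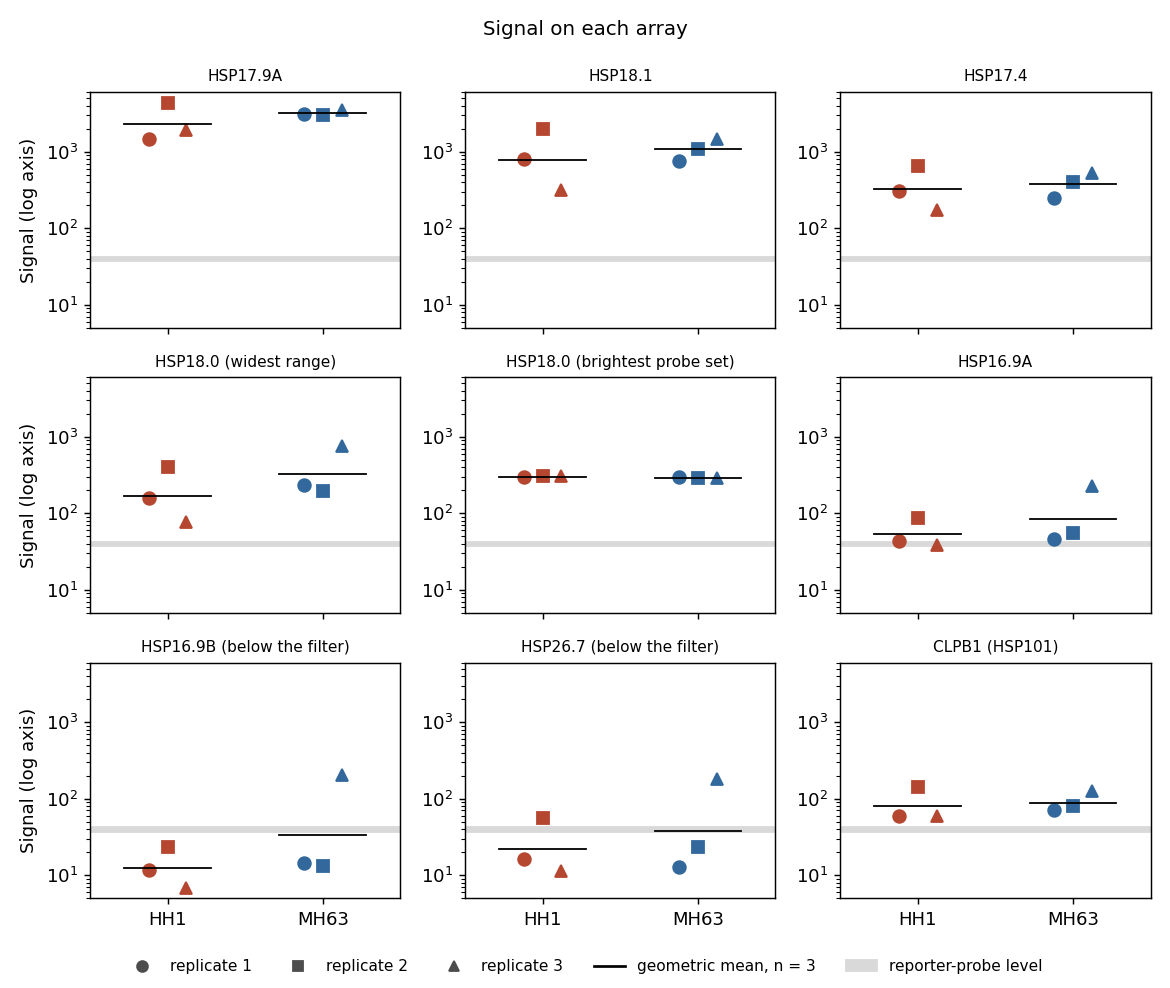
Signal on each array, on a log axis, for 7 small HSP genes (HSP18.0 by 2 probe sets) and for CLPB1, with HH1 on the left and MH63 on the right of each panel; symbols mark the replicate, black lines the geometric mean and the grey band the background level from reporter probe sets. HH1 replicate 2 is the highest HH1 array in every panel but that of the brightest HSP18.0 probe set. MH63 replicate 3 reaches 206 for HSP16.9B and 179 for HSP26.7, while the other MH63 arrays of these genes are below the band.

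The remaining small HSPs differed less or in another order. HSP24.1 read 705, 1350.0 and 563 in HH1 and 709, 893 and 825 in MH63, with HH1 replicate 2 highest. HSP16.0, with the largest positive difference of the class, read 42.6, 69.4 and 45.5 in HH1 and 41.3, 49.9 and 40 in MH63, close to background (log2 difference 0.24, standard error 0.21). Without HH1 replicate 2 this difference was 0.02, and without HH1 replicate 1 it was 0.37. For HSP17.9B the difference was 0.23 (SE 0.18), and 0.07 without HH1 replicate 2. HSP26.2 went against the pattern, with 55.1, 27.7 and 47.1 in HH1 and 59.5, 44.7 and 52.8 in MH63, HH1 replicate 2 being the lowest array and below background. Its log2 difference was -0.32 (SE 0.27), and -0.03 without that array. HSP23.2 was likewise lowest among HH1 arrays in replicate 2, at 41.0, and highest of all arrays in MH63 replicate 3, at 99. HSP18.8 ranged only from 1189 to 1419 in HH1 and from 1365 to 1483 in MH63, on a probe set that can bind related transcripts. HSP22.3 ranged from 56.5 to 76.1 in HH1 and from 46.6 to 78.6 in MH63. HSP17.8 and HSP21.9 were below background on all arrays.

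The HSP90 genes, read from their brightest probe sets, had within-genotype standard deviations of 0.08 to 0.15. HSP81-1 read 8300.5, 6824 and 7875 in HH1 and 7031, 8284 and 8522 in MH63. A second HSP81-1 probe set varied more in HH1, a 1.78-fold range, with 1300.4, 993 and 1765 in HH1 and 1354, 1609 and 1665 in MH63. HSP81-2 read 6813, 6088 and 6641 in HH1 and 6524, 6672 and 7228 in MH63, a 1.12-fold range in HH1 and a 1.11-fold range in MH63. HSP81-3 read 9867, 8257 and 9709.9 in HH1 and 9971, 9728 and 9929 in MH63, with a log2 difference of -0.09 (SE 0.10, adjusted p 1.000, limma), on a probe set that can bind related transcripts. In all 3 genes HH1 replicate 2 was the lowest HH1 array, as it was for 49.2% of all genes tested. In most small HSPs it was the highest HH1 array. The dim HSP81-3 probe set noted above read 48.5, 40.8 and 43.9 in HH1 and 53.3, 52.7 and 66.9 in MH63, with a log2 difference of -0.37 (SE 0.14, unadjusted p 0.036, adjusted p 1.000, limma), and HH1 replicate 2 lay below the background level there. The brighter probe sets of HSP81-3, and 2 shared by HSP81-2, HSP81-3 and a gene outside the members, overlapped between the genotypes.

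In the HSP100/ClpB class, CLPB1 encodes HSP101, the disaggregase needed for tolerance of severe heat in plants. Its signals were 58.8, 144 and 60 in HH1 and 70.3, 79.1 and 124 in MH63, so that HH1 replicate 2 and MH63 replicate 3 were the highest arrays of their genotypes. The organelle forms varied less. CLPB2 read 256, 307 and 216 in HH1 and 259, 246 and 245 in MH63, and CLPB3 read 93.9, 105 and 88.6 in HH1 and 101, 97.1 and 106 in MH63.

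Among the class A factors, HSFA4D had the largest difference of all 40 genes. This gene is also known as Spl7, and its mutation gives the spotted leaf phenotype of rice, with lesions in the absence of pathogens. Its signals were 268, 464 and 60.4 in HH1 and 108, 165 and 78.3 in MH63, a 7.67-fold range within HH1. HH1 replicates 1 and 2 lay above all MH63 arrays and HH1 replicate 3 below them. Mean and SD over 3 arrays were 264 ± 202 for HH1, against 117 ± 43.9 for MH63. The log2 difference was 0.81 (limma, SE 0.72, adjusted p 1.000). Without HH1 replicate 3 it was 1.66 (SE 0.37, adjusted p 0.19), and without HH1 replicate 2 it was 0.19, while adjusted p ran from 0.19 to 1.000 over its alternatives.

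HSFA2C had the next largest positive difference, 0.34 (SE 0.56), from 869.6, 2086 and 442 in HH1 and 699, 1116 and 509 in MH63. In both genotypes replicate 2 was highest and HH1 replicate 3 was the lowest array of all. Its annotation record and that of HSFA2D also carry the names of acireductone dioxygenases, enzymes of methionine salvage, so these probe sets may read that transcript instead. A second HSFA2C probe set read 116, 179 and 121 in HH1 and 142, 124 and 113 in MH63, a narrower range. HSFA2D read 542, 766 and 489 in HH1 and 624, 537 and 567 in MH63 on one probe set, and was below background on all arrays on another.

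The other class A factors were closer to equal. HSFA1, the class of the master regulators, read 412, 443 and 406 in HH1 and 486, 407 and 394 in MH63. HSFA2A and HSFA2B stood near the background level, at 37.4 to 54.7 in HH1 and 38.9 to 46.8 in MH63 for HSFA2A, and at 32.1 to 45.9 in HH1 and 33.1 to 43.9 in MH63 for HSFA2B. Another tested HSFA2A probe set, which can bind related transcripts, read 36.0, 66.2 and 31.6 in HH1 and 23.2, 45.2 and 43.6 in MH63. One below the brightness limit read 37.0, 39.4 and 35.2 in HH1 and 26.1, 29.4 and 34.2 in MH63, below background on all arrays. HSFA2E read 325, 427 and 333 in HH1 and 429, 369 and 362 in MH63. HSFA3, which in Arabidopsis acts downstream of DREB2A, read 105, 88.4 and 70 in HH1 and 96.1, 95.5 and 136 in MH63, with a log2 difference of -0.31 and a standard error of 0.21, with the smallest unadjusted p of its class, 0.18 (limma). The difference was -0.15 without MH63 replicate 3 and -0.16 without HH1 replicate 3. HSFA9 read 317, 413 and 214 in HH1 and 317, 233 and 245 in MH63, with HH1 replicate 2 again the highest. HSFA5 was the steadiest, from 107 to 120.5 in HH1 and from 109.9 to 124 in MH63. HSFA4B ranged from 239 to 342 in HH1 and from 265 to 312 in MH63, and HSFA6B from 52.8 to 92.0 in HH1 and from 56.1 to 75.9 in MH63.

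Class B factors had a median log2 range of 1.04 within HH1 and 0.30 within MH63. The range within HH1 was also the wider one in the other classes and over all genes tested, whose medians were 0.43 in HH1 and 0.27 in MH63. HSFB1 read 958, 1348 and 657 in HH1 and 889, 853 and 834 in MH63, a 2.05-fold range in HH1 and a 1.06-fold range in MH63. HSFB2A read 345, 578 and 275 in HH1 and 338, 416 and 412 in MH63. HSFB2B, whose Arabidopsis counterpart represses heat shock genes together with HSFB1, read 72.4, 142 and 51.5 in HH1 and 76.7, 80.2 and 61.9 in MH63. HSFB2C ranged from 239.6 to 323 in HH1 and from 222 to 292 in MH63. HSFB4B differed in order from the others of its class, with 169, 128 and 164 in HH1 and 132, 120.3 and 125 in MH63. Its Arabidopsis counterpart, SCHIZORIZA, patterns the ground tissue of the root. The log2 difference of HSFB4B was 0.28 with a standard error of 0.15, and its unadjusted p of 0.10 (limma) was the smallest of any of the 40 genes read from its brightest probe set.

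Class C factors differed from most class A and B factors in the order of the HH1 arrays. HSFC2A read 172, 141 and 248 in HH1 and 230.0, 205 and 250.3 in MH63, with a log2 difference of -0.32 and a standard error of 0.22. The difference was -0.14 without HH1 replicate 2 and -0.55 without HH1 replicate 3. HSFC1A read 109.9, 50.8 and 93.7 in HH1 and 77.4, 87.6 and 90.6 in MH63, and HSFC1B ranged from 56.7 to 71.5 in HH1 and from 56.5 to 64.1 in MH63. HH1 replicate 2 was the lowest HH1 array for all 3, as it was for 49.2% of all genes tested.

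Across classes the arrays can be described by how many genes each led, a pattern picked after the values were seen and not tested. HH1 replicate 2 was the highest HH1 array for 10 of 14 small HSPs, 3 of 3 HSP100/ClpB genes, 10 of 12 HSFA genes and 4 of 5 HSFB genes, and for 32.6% of all genes tested. It was the lowest for 3 of 3 HSP90 and 3 of 3 HSFC genes, and for 49.2% of all genes tested. Relative to the mean of the other HH1 arrays, HH1 replicate 2 had a median log2 excess of 0.57 over the small HSPs, -0.24 over HSP90, 0.39 over HSP100/ClpB, 0.47 over HSFA, 0.77 over HSFB and -0.55 over HSFC, and of -0.08 over all genes. MH63 replicate 3 was the highest MH63 array for 7 of 14 small HSPs, 2 of 3 HSP90 and 2 of 3 HSP100/ClpB genes, 3 of 12 HSFA, 0 of 5 HSFB and 3 of 3 HSFC genes, where 26.3% of all genes were highest there. Its median log2 excess over the other MH63 arrays was small, 0.12 over the small HSPs, 0.13 over HSP90 and 0.10 over HSP100/ClpB. For the factors it was -0.13 over HSFA, -0.02 over HSFB and 0.14 over HSFC, and over all genes it was -0.03. Of the 14 small HSPs, 5 had an excess over 0.5 there. An excess over 0.5 on both HH1 replicate 2 and MH63 replicate 3 was found for 5 of the 40 genes, HSP16.9A, HSP17.4, HSP18.1, HSP18.6 and CLPB1, and for 0.196% of all genes tested, with no HSF gene among the 5. Of the values that moved with these arrays, 18S ribosomal RNA was high on HH1 replicate 2 and not on MH63 replicate 3, and the green tissue sum was highest among HH1 arrays on HH1 replicate 2 and lowest of all on MH63 replicate 3. Their part in the result was not tested.

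**Figure D4:**
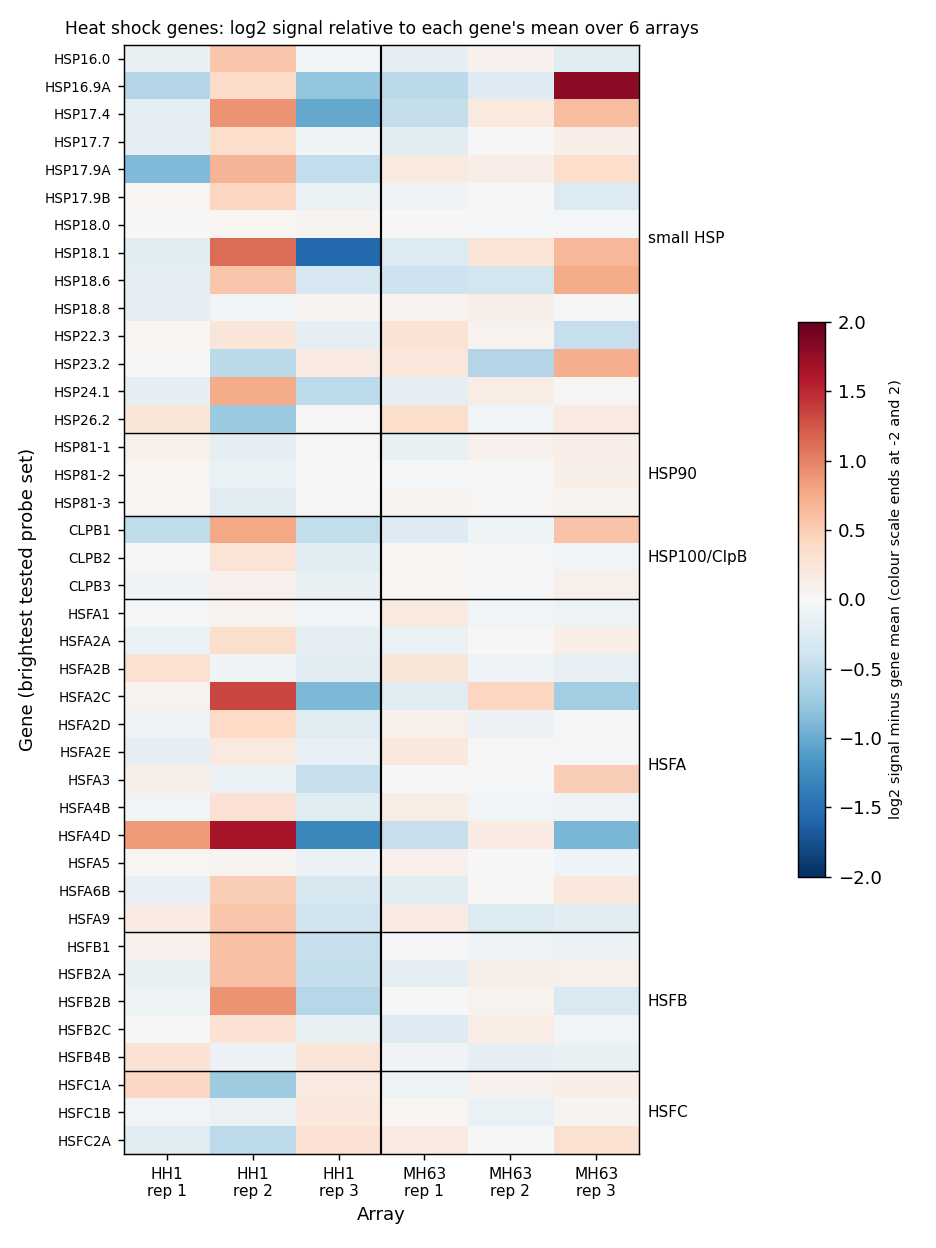
Log2 signal of each tested heat shock gene relative to its own mean over the 6 arrays, with genes in rows by class and arrays in columns, HH1 left of MH63; red is above and blue below the gene's mean. The column of HH1 replicate 2 is red for most small HSP, HSFA and HSFB genes and blue for HSP90 and HSFC genes. The column of MH63 replicate 3 is reddest for HSP16.9A, HSP17.4, HSP18.1, HSP18.6, HSP23.2, CLPB1 and HSFA3. Other genes are a weaker red there, among them the HSP90 and HSFC genes.

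Partners of the chaperones and other heat-response genes were followed from a list of names. Of 27 tested genes, 0 passed (limma, Benjamini-Hochberg) and 1 had an unadjusted p under 0.05, against 4.0% of all genes tested. The median log2 difference was 0.00, with 12 above and 15 below 0. In 7 of them the name, such as bip103, is that of proteins that bind a brassinosteroid receptor kinase and not of the chaperone BiP, and without these the median over 20 genes was 0.02. APX7, an ascorbate peroxidase, which removes hydrogen peroxide, read 1681, 1699.9 and 1918 in HH1 and 1492, 1537 and 1411 in MH63. All HH1 arrays were above all MH63 arrays, with a log2 difference of 0.25 (limma, SE 0.11, unadjusted p 0.049, adjusted p 1.000). APX4 read 719, 768 and 775 in HH1 and 672, 706 and 654 in MH63, also without overlap. These 2 of 27 genes stand beside the 8.63% of all genes tested that did not overlap. DREB2B, a transcription factor of the drought and heat response, read 169, 184 and 144 in HH1 and 182, 182 and 243 in MH63. CLPC2, a Clp chaperone, read 168, 289 and 202 in HH1 and 289, 355 and 205 in MH63. The HSP90 partners SGT1 and RAR1 of disease resistance signalling had log2 differences of 0.04 and -0.12, and BIP1, the HSP70 chaperone of the endoplasmic reticulum, of -0.03.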

How the data were processed

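Root RNA of 3 HH1 and 3 MH63 samples, grouped by their titles, was hybridised to 1 Affymetrix rice array each. The deposited values are probe set intensity on a linear scale. MAS5 is the tool listed per the submitters' processing notes, without its version or the scaling of arrays. The log2 of each signal was taken with no offset. After setting aside 187 controls, the brighter 50% of 57194 probe sets by mean log2 signal over the 6 arrays, 28597, were tested for HH1 minus MH63 in limma 3.58.1 (R 4.3.3) with lmFit, eBayes with a trend and Benjamini-Hochberg adjustment, two-sided, at 0.05. The fit was tested on simulated data with independent noise for each probe set. That simulation holds no shift shared by the probe sets of an array, so it does not cover such shifts.

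Genes were matched through Entrez numbers to the RefSeq annotation of assembly ASM3414082v1, used for names and gene order only. Probe sets of several genes, and IDs ending in _s_at or _x_at, are uncertain. Classes follow the gene names, a bare HSF number giving way to a lettered name. Genes named with all values were those with the 6 largest differences each way, the brightest and the smallest p of each class, and the 4 widest ranges within a genotype, and the values of other members were added after they were seen. Of the partner list the 2 smallest p each way are named. The members and lists were chosen with earlier results of these data known. Promoter and protein comparisons had been planned and were not run. Alternatives covered normalization, the filter, an offset of 13.2, the variance model, array weights, a replicate block, other probe sets and leaving out each array. Figures were drawn with matplotlib 3.10.9.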

Additional observations from a re-analysis of the deposited data

How the results depend on the processing

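No heat shock probe set and no gene of the partner list passed the test in any of the 14 alternatives, while 0 to 6 heat shock probe sets had an unadjusted p under 0.05 (limma). The 6 of 56 came without HH1 replicate 2, where 9.03% of all probe sets had one. Over the whole array 32 probe sets passed. Dropping the brightness filter gave 54 and keeping the brightest 25% gave 8, from a larger and a smaller tested set. Array weights gave 50, and the replicate block 17. With 1 array left out the count ran from 0, in the absence of HH1 replicate 1 (843 at an unadjusted p under 0.05), to 306, in the absence of HH1 replicate 3. The cause was not tested. Same-numbered arrays did not all deviate together, with correlations of -0.12, 0.45 and 0.31 for numbers 1, 2 and 3. Arrays of different numbers had correlations from -0.45 to 0.25. These values do not settle whether the numbers pair the samples, and with the replicate block 0 heat shock probe sets passed. Among the class medians, only that of HSP90 kept its sign in all alternatives, from -0.14 to -0.01. The medians ran from -0.23 to 0.15 for the small HSPs and from -0.15 to 0.06 for HSP100/ClpB. For the factors they ran from -0.15 to 0.12 in HSFA, from -0.11 to 0.23 in HSFB and from -0.32 to 0.09 in HSFC. The HSFC value of -0.32 is that of HSFC2A alone, the 1 HSFC gene among the brightest 25%. With 1 array left out the HSFC median ran from -0.28 to 0.09. Of 223 alternative values of the 16 named genes, 7 changed sign, none of them past the test. With array weights the log2 difference of CLPB2 was -0.02. With 1 array left out, differences ran from -0.09 to 0.17 for CLPB2, from -0.25 to 0.87 for HSFA2C, from -0.01 to 0.46 for HSFA9 and from -0.11 to 0.41 for HSFB1, each lowest without HH1 replicate 2 and highest without HH1 replicate 3. They ran from -1.09 to 0.07 for HSP16.9A, positive without MH63 replicate 3, and from -1.11 to 0.23 for HSP18.1, positive without HH1 replicate 3. What caused the changes of sign was not tested. In an alternative added after seeing the data, the HSFA median without HSFA2C and HSFA2D was 0.00 over 10 genes. Leaving out an array sets 2 arrays against 3, and probe sets near the background level limit what can be read.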
